A study of Mus musculus with 4 samples.

Results

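The genes described here encode the route by which insulin-type signals and nutrients reach mTORC1, the kinase complex that sets the rate of cell growth. They are 34 listed genes of insulin and PI3-kinase signalling, the mTOR complexes, the TSC complex, the Rag GTPases, Ragulator, GATOR1 and their nearest partners. They were taken by name from 45232 gene rows, and all 34 were found. Of these, 33 had enough reads to enter the test with 15320 genes in all, and Irs1 did not. Mtor, Rptor, Igf1r and Akt1 belong to the same route but were left out of the list.

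RNA was sequenced from mouse LSK cells, a bone marrow fraction (Lin-, Kit+, Sca-1+) in which blood stem cells and early progenitors are found. They had engrafted stably from transplanted long-term stem cells (LT-HSCs), and the GFP+ cells among them were sorted 3 months later. The transplanted stem cells carried either Scr, the scrambled control, or miR-99 KD, a knockdown of the microRNA miR-99. Each group had 2 mice and 2 libraries, and which library came from which mouse is not stated. The labels give no vector, mouse strain or age. The comparison is between engrafted cells with and without the knockdown.

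Growth factor receptors recruit class I PI3-kinases, which make the membrane lipid PIP3, and PIP3 brings the kinases Pdk1 and Akt together. Akt holds back the TSC complex, which frees the small GTPase Rheb to switch on mTORC1. Amino acids act in parallel at the lysosome, where Ragulator anchors the Rag GTPases that bring mTORC1 to Rheb, and GATOR1 turns the Rags off. In blood stem cells the pathway is known for balancing quiescence against growth and division, and loss of its brake Tsc1 in mice exhausts the stem cell pool.

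The miR-99 family has 3 mouse members, shown here because microRNAs find their target messages mainly through the seed. The sequences are from RefSeq on build GRCm38.p6, written 5′ to 3′, with the seed (bases 2 to 8) in capitals.
mmu-miR-99a-5p: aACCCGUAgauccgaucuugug
mmu-miR-99b-5p: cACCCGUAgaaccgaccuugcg
mmu-miR-100-5p: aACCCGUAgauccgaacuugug
The 3 seeds are identical. The search covered the longest 3′ untranslated region of each tested gene in GENCODE M21, on the RNA strand, for TACGGGT, which pairs with the whole seed, for ACGGGTA, which pairs with bases 2 to 7 and adds an A, and for their shared 6-base core ACGGGT. Of 12817 tested genes with a region of at least 50 bases, 303 (2.36%) held TACGGGT or ACGGGTA and a further 583 (4.55%) held only the core. Among the 33 tested genes of the list the counts were 1 and 3, and 0 held TACGGGT.

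The gene with ACGGGTA was Eif4ebp2, on chromosome 10, which also held a core elsewhere. Its product, 4E-BP2, restrains cap-dependent translation until mTORC1 phosphorylates it. The other genes with a core were Pik3cd and Rragd on chromosome 4 and Rps6kb1 on chromosome 11. The sites are shown with up to 10 bases on each side and the match in capitals, since these are all the matches found in the list.
Eif4ebp2, core plus A: tttcattggcACGGGTAttttttaagc
Eif4ebp2, core: tgctctggtaACGGGTttctgcatgg
Pik3cd, core: tggctggaagACGGGTtttttgttaa
Rps6kb1, core: catctaaaagACGGGTttctgacagt
Rragd, core: ccttgtgcagACGGGTgatttctttt
A match is a description of the letters, and whether miR-99 binds there was not tested.

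Over the whole list, the shares of genes past each threshold were near those of all genes tested. The edgeR quasi-likelihood test called, after Benjamini-Hochberg adjustment, 0 of the 33, against 0 of 15320 genes (0%). At an unadjusted edgeR p under 0.05 it counted 5 of the 33, 3 lower and 2 higher in miR-99 KD. The same threshold counted 15.6% of all genes, 9.63% lower and 5.97% higher. DESeq2 called 2 of the 33, Pik3cg and Akt2, both lower, against 896 genes or 5.85% of all. That share is of 15320 genes, of which 2674 had no DESeq2 adjusted p, while each of the 33 had one. Of all genes, 4.16% were called lower and 1.68% higher by DESeq2.

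The median log2 difference of the 33 genes was 0.01, beside 0.02 over all genes tested, and the fitted differences ran from -0.80 for Akt2 to 0.64 for Pik3cb. In 17 of the 33 the miR-99 KD libraries did not overlap the Scr libraries, 9 being higher and 8 lower. Over all genes tested 50.5% did not overlap, 24.5% being higher and 26% lower (percentages of 15320 genes). The lowest edgeR adjusted p in the list was 0.204.

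**Figure D1:**
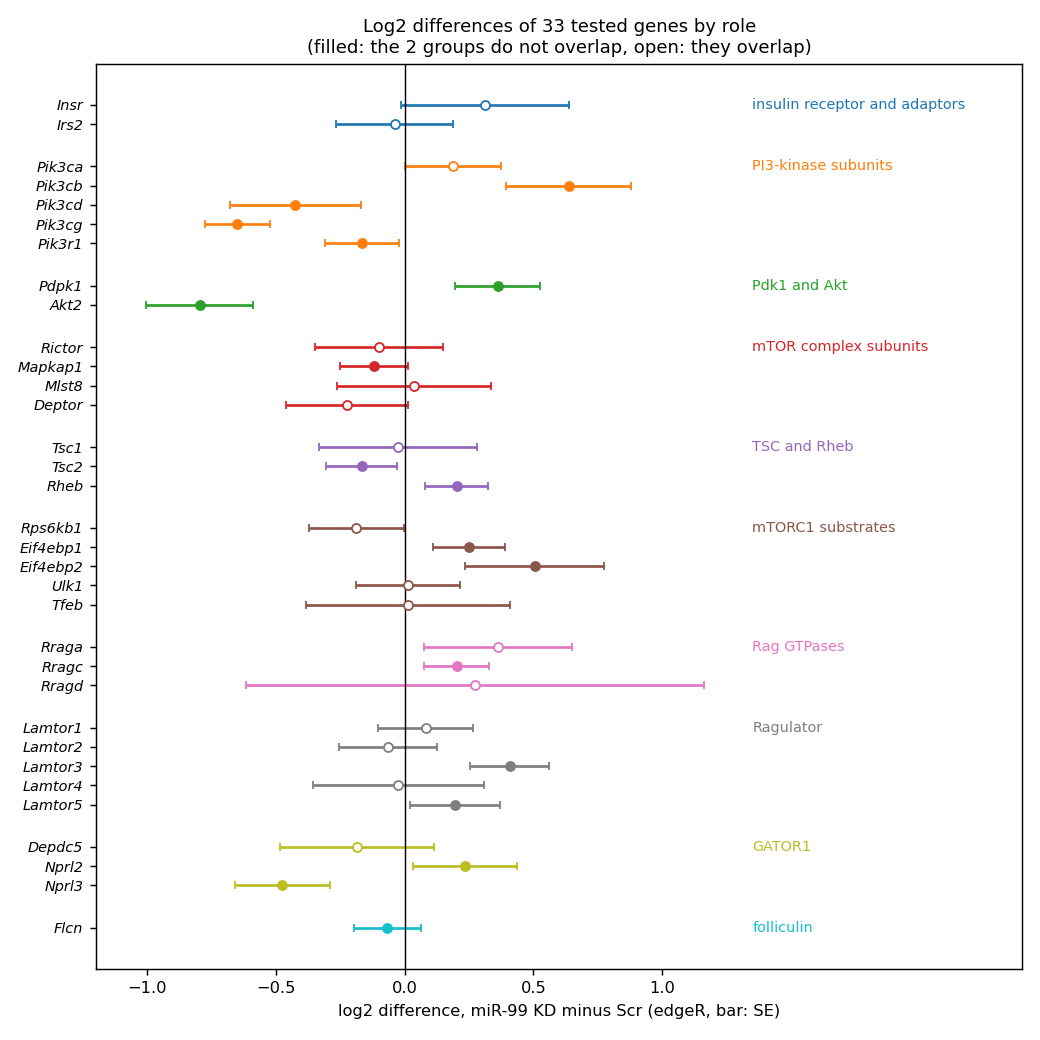
Log2 difference (miR-99 KD minus Scr, horizontal axis) of the 33 tested genes, grouped by role, with bars for the standard error of the edgeR fit and n = 2 libraries per group. Filled points are genes whose groups do not overlap. Akt2 and Pik3cg lie farthest to the left at -0.80 and -0.65 and Pik3cb farthest to the right at 0.64, while most genes lie near 0.

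The libraries held 27295197 to 32350590 reads in genes and 19060 to 23052 genes with at least 1 read. Values below are CPM, read counts per 1e+06 reads of a library total scaled by TMM, unless a sentence says otherwise. Of the sort markers, Kit stood at 1149 and 1280 CPM in Scr 1 and Scr 2, and at 670 and 774 in miR-99 KD 1 and miR-99 KD 2. Ly6a, for Sca-1, stood at 46.5 and 22.8 and at 12.4 and 22.3. With Ptprc, Cd34 and Cd48, which the sort named above does not include, these 5 genes summed to 2257 and 2617 and to 1397 and 1328 CPM. Cd34 made 673 and 895 and then 350 and 276 of these sums. In 7 of 10 stem cell markers both miR-99 KD libraries lay below both Scr libraries. Markers of other cells differed too, and 9 of 12 erythroid markers lay above both Scr libraries, summing to 13907 and 15899 CPM against 9672 and 9061. All 16 neutrophil and all 12 B cell markers were highest in miR-99 KD 1. Neutrophil markers summed to 31811 CPM there, 5747 in miR-99 KD 2 and 8915 and 6617 in the Scr libraries, and B cell markers to 336, 96.4, 97.4 and 43.4. Monocyte and macrophage markers summed to 4105, 862, 1571 and 623 CPM in the same order, of which Lyz2, also a neutrophil gene, made 3620, 610, 1214 and 457. Only 5 of these 10 were highest in miR-99 KD 1, and Adgre1, Cd68, C1qa, C1qb and Fcgr1 were highest in Scr 1. T and NK cell markers summed to 222 and 229 CPM in Scr, and to 166 and 126 in miR-99 KD. Nkg7 made 207 and 194 and then 146 and 114 of these sums. Mast cell and basophil markers summed to 70.0 and 40.3 CPM in Scr, and to 117 and 118 in miR-99 KD. Of all the marker genes listed, Ncr1 of NK cells was at 0 in every library. In sorted bulk RNA, fewer cells of a type and less RNA per cell cannot be told apart, and the part of these shifts in the results below was not tested.

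The insulin receptor and its adaptors were low or similar in both groups. Insr, the receptor itself, stood at 15.1 and 9.92 CPM with the scramble and 12.7 and 18.4 with the knockdown, so the groups overlapped. Irs1, an adaptor that links the receptor to PI3-kinase, had 1 read in Scr 2 and 0 reads in the other libraries, where a count of 0 allows up to 0.0897 CPM for Scr 1, 0.114 for miR-99 KD 1 and 0.113 for miR-99 KD 2. Those limits stand for 3 reads and cover counting error only. Irs2, its sister adaptor, was the one with reads, at 32.9 and 42.7 CPM in the control libraries, and 41.5 and 32.1 in the knockdown libraries. Its groups overlapped, and its log2 difference was -0.04 ± 0.23 (SE, n = 2 in each group).

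The class I PI3-kinase catalytic subunits went in different directions. Pik3cg encodes the gamma subunit, which is concentrated in blood cells and answers to G protein-coupled receptors. It stood at 188 and 195 CPM in the Scr libraries and 119 and 125 CPM in the knockdown libraries, so the groups were apart and the libraries of each group were close. The log2 difference was -0.65 ± 0.13 (SE, n = 2 in each group), at an edgeR adjusted p of 0.204 and a DESeq2 adjusted p of 8.8e-04. Without each library in turn it stayed between -0.71 and -0.62, and its unadjusted edgeR p was under 0.05 in 8 of 8 alternative fits. The sum of the stem cell markers was also lower in miR-99 KD, at 504 and 646 CPM against 1142 and 1025 in Scr. In 7 of these 10 markers both miR-99 KD libraries lay below both Scr libraries. Their part in the difference of Pik3cg was not tested. When either Scr library was left out DESeq2 did not call it, with adjusted p 0.386 without Scr 1 and 0.936 without Scr 2, and with a replicate block the DESeq2 adjusted p was 0.0994.

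Pik3cd, the delta subunit that is also concentrated in blood cells, stood at 80.4 and 93.5 CPM with the scramble and 79.6 and 49.9 with the knockdown. Scr 1 and miR-99 KD 1 were nearly equal, and the low value was that of miR-99 KD 2. Its log2 difference of -0.42 ± 0.26 (SE, n = 2 in each group) had an edgeR adjusted p of 0.461. Leaving out miR-99 KD 1 gave -0.80, and leaving out miR-99 KD 2 gave -0.13.

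Pik3cb, the beta subunit found in most tissues and prominent in platelets, had the highest fitted difference of the list. It stood at 41.8 and 42.5 CPM in the control libraries, and 79.5 and 51.6 in the knockdown libraries. The Scr libraries were almost the same, both miR-99 KD libraries were higher, and most of the gap came from miR-99 KD 1, the library with the highest neutrophil and B cell markers. The log2 difference was 0.64 ± 0.24 (SE, n = 2 in each group), at an edgeR adjusted p of 0.313 and a DESeq2 adjusted p of 0.158. Leaving out miR-99 KD 1 gave 0.29, and leaving out miR-99 KD 2 gave 0.92.

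Pik3ca, the widely expressed alpha subunit, stood at 69.1 and 74.4 CPM in the Scr libraries and 70.1 and 93.2 CPM in the knockdown libraries, and overlapped. Pik3r1, the regulatory subunit that stabilises the catalytic ones, stood at 118 and 116 CPM with the scramble and 95.6 and 113 with the knockdown, with a log2 difference of -0.17 ± 0.14 (SE, n = 2 in each group).

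Set against one another per kilobase of annotated exon, the catalytic subunits were in different proportions in the groups. Pik3cg and Pik3cd together made 72.4% and 73.0% of the summed CPM per kilobase of the 4 catalytic genes in Scr 1 and Scr 2. They made 58.9% and 56.6% in miR-99 KD 1 and miR-99 KD 2. Of this pair, Pik3cg alone was lower in both miR-99 KD libraries, at 31.0% and 36.8% against 45.9% and 44.4% in Scr. The share of Pik3cd overlapped, at 26.4% and 28.6% in Scr, against 27.9% and 19.8% in miR-99 KD. The share of Pik3cb was 12% and 11.3% in Scr, against 24.2% and 17.8% in miR-99 KD. That of Pik3ca was 15.7% in both Scr libraries, against 16.9% and 25.5%. The joint share of Pik3cg and Pik3cd was thus 72.7% ± 0.42 against 57.8% ± 1.6 (SD, n = 2 in each group), a share formed after the values were seen and so given without a test. The sum of all 4 genes was 48.6 and 52.2 CPM per kilobase in Scr, against 45.6 and 40.2 in miR-99 KD.

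**Figure D2:**
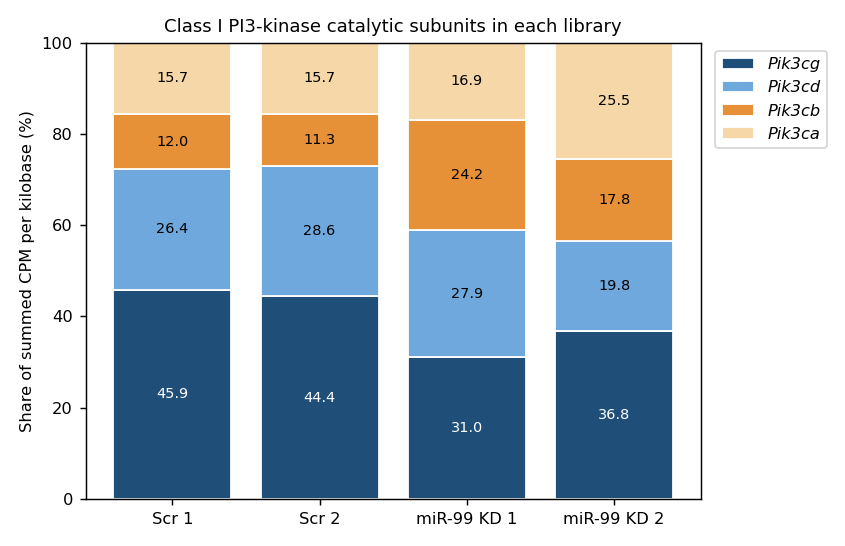
Share of each class I catalytic subunit gene (percent of their summed CPM per kilobase of exon, vertical axis) in each of the 4 libraries. Pik3cg makes 45.9% and 44.4% in Scr, against 31.0% and 36.8% in miR-99 KD, and Pik3cb has its larger shares in the miR-99 KD libraries.

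Downstream of PIP3, Akt2 and Pdpk1 differed in sign. Akt2 encodes the Akt kinase best known for insulin-stimulated glucose uptake. It stood at 59.3 and 71.3 CPM in the control libraries, and 42.6 and 32.5 in the knockdown libraries, and both miR-99 KD libraries were below both Scr libraries. The log2 difference was -0.80 ± 0.21 (SE, n = 2 in each group), the lowest of the list, with an edgeR adjusted p of 0.232 and a DESeq2 adjusted p of 0.0274. It ran from -1.01 without miR-99 KD 1 to -0.61 when miR-99 KD 2 was left out. Its unadjusted edgeR p was under 0.05 in 7 of 8 alternative fits and 0.0867 without Scr 2. DESeq2 called it in the fit without miR-99 KD 1 and in none of the other fits that left out a library, and with a replicate block the DESeq2 adjusted p was 0.131.

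Akt1, which is not in the list, stood at 337 and 425 CPM in the Scr libraries and 380 and 283 CPM in the knockdown libraries. Pdpk1, which encodes Pdk1, the kinase that phosphorylates Akt in its activation loop, stood at 73.9 and 59.5 CPM with the scramble and 83.1 and 88.3 with the knockdown. Both miR-99 KD libraries were higher, and the log2 difference was 0.36 ± 0.17 (SE, n = 2 in each group) with an edgeR adjusted p of 0.365. It was 0.20 when Scr 2 was left out.

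**Figure D3:**
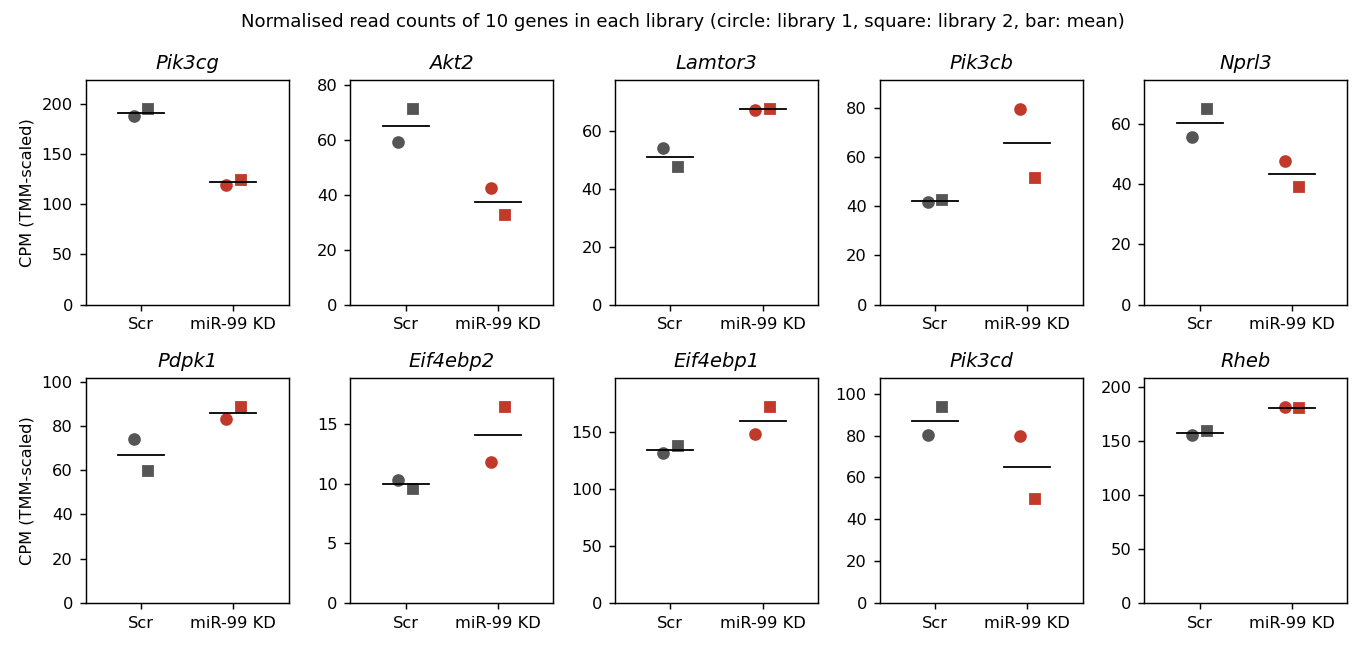
CPM (vertical axes, from 0) of 10 genes, those of smallest edgeR p, in each library, with bars for the mean of 2 libraries per group. The groups are apart in each panel, and none of the differences passed edgeR's adjusted threshold. Pik3cg and Rheb have close pairs in both groups, while Pik3cb and Pik3cd are spread in miR-99 KD.

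The subunits of the mTOR complexes overlapped between the groups or lay close. Rictor, which defines mTORC2, stood at 106 and 103 CPM in the control libraries, and 74.6 and 121 in the knockdown libraries, so the miR-99 KD libraries lay on either side of Scr. Mapkap1, which encodes the mTORC2 subunit Sin1, had a log2 difference of -0.12 ± 0.13 (SE, n = 2 in each group). Mlst8, a subunit shared by both complexes, stood at 46.4 and 57.9 CPM in the Scr libraries and 67.6 and 39.3 CPM in the knockdown libraries. Deptor, an inhibitor that binds mTOR, stood at 62.0 and 46.2 CPM with the scramble and 39.7 and 53.0 with the knockdown, and overlapped. The fitted log2 differences of the 4 genes ran from -0.22 to 0.04.

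Among the brake and switch of mTORC1, Rheb was a little higher and Tsc2 a little lower, neither past the test. Rheb stood at 155 and 159 CPM in the control libraries, and 181 and 180 in the knockdown libraries, with pairs that were close within each group. Its log2 difference was 0.20 ± 0.12 (SE, n = 2 in each group), at an edgeR adjusted p of 0.464, and 0.11 with library totals alone. Tsc2, whose product turns Rheb off, stood at 110 and 123 CPM in the Scr libraries and 99.9 and 108 CPM in the knockdown libraries, with an edgeR adjusted p of 0.577. Tsc1, its stabilising partner, stood at 46.5 and 39.7 CPM with the scramble and 30.4 and 54.3 with the knockdown, the lowest and the highest value both being in miR-99 KD.

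Of the mTORC1 substrates, the translation repressors were higher in both miR-99 KD libraries without passing the test. Eif4ebp2, the gene with the core plus A, stood at 10.3 and 9.54 CPM in the control libraries, and 11.8 and 16.4 in the knockdown libraries. The log2 difference was 0.50 ± 0.27 (SE, n = 2 in each group), at an edgeR adjusted p of 0.415. Leaving out miR-99 KD 2 brought it to 0.25. Eif4ebp1, which encodes the related repressor 4E-BP1, stood at 132 and 138 CPM in the Scr libraries and 148 and 172 CPM in the knockdown libraries. The fitted log2 difference was 0.25 ± 0.14 (SE, n = 2 in each group), and 0.14 when miR-99 KD 2 was left out. Its 3′ untranslated region held no seed core. Per kilobase of exon, Eif4ebp2 made 2.89% and 2.57% of the sum of both genes in Scr, against 2.93% and 3.50% in miR-99 KD.

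The remaining substrates overlapped between the groups. Rps6kb1, which encodes the S6 kinase that drives ribosomal protein phosphorylation, stood at 62.6 and 83.0 CPM with the scramble and 65.1 and 62.7 with the knockdown. Ulk1, the kinase that starts autophagy and is held back by mTORC1, stood at 60.7 and 77.9 CPM in the control libraries, and 61.8 and 78.0 in the knockdown libraries. Tfeb, a transcription factor for lysosomal genes that mTORC1 keeps out of the nucleus, stood at 18.9 and 18.8 CPM in the Scr libraries and 26.1 and 11.9 CPM in the knockdown libraries. The Scr libraries agreed closely for Tfeb and the miR-99 KD libraries lay on either side of them. Its log2 difference was 0.01 ± 0.40 (SE, n = 2 in each group), and -0.67 without miR-99 KD 1.

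All 3 genes with only the 6-base core had groups that overlapped or nearly touched, namely Pik3cd, Rps6kb1 and Rragd. Their log2 differences were -0.42, -0.19 and 0.27. Over all tested genes the median log2 difference was 0.01 with TACGGGT or ACGGGTA, -0.07 with only the core and 0.02 with neither.

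The Rag GTPases, which work as a pair of RagA or RagB with RagC or RagD, had positive fitted differences for the 3 genes of the list, Rraga, Rragc and Rragd, and none passed the test. Rragc, for RagC, stood at 146 and 152 CPM with the scramble and 176 and 167 with the knockdown, with both miR-99 KD libraries above Scr and a log2 difference of 0.20 ± 0.13 (SE, n = 2 in each group). Rraga, for RagA, stood at 58.0 and 38.0 CPM in the control libraries, and 50.5 and 72.9 in the knockdown libraries, and overlapped. Rragd, for RagD, had 167 and 20 reads in Scr, against 87 and 95 in miR-99 KD, so the Scr libraries lay on either side of miR-99 KD. Its log2 difference of 0.27 ± 0.89 (SE, n = 2 in each group) became -0.55 without Scr 2 and 2.29 without Scr 1.

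Of the 5 Ragulator genes, which encode the scaffold that holds the Rags on the lysosome, Lamtor3 and Lamtor5 were higher in both miR-99 KD libraries and the other 3 overlapped. Lamtor3 stood at 54.0 and 47.5 CPM in the Scr libraries and 67.2 and 67.4 CPM in the knockdown libraries, with nearly equal miR-99 KD values. The fitted log2 difference was 0.41 ± 0.15 (SE, n = 2 in each group), at an unadjusted edgeR p of 0.0428, an edgeR adjusted p of 0.308 and a DESeq2 adjusted p of 0.187. The unadjusted edgeR p was under 0.05 in 1 of 8 alternative fits. Lamtor5 stood at 52.5 and 42.6 CPM with the scramble and 54.4 and 54.4 with the knockdown, close to Scr 1, and its log2 difference of 0.20 was 0.04 when Scr 2 was left out. Lamtor1, the subunit anchored in the lysosomal membrane, stood at 71.3 and 60.3 CPM in the control libraries, and 77.3 and 61.9 in the knockdown libraries. Lamtor2 stood at 49.2 and 48.8 CPM in the Scr libraries and 52.9 and 40.6 CPM in the knockdown libraries, and Lamtor4 at 34.6 and 24.8 and at 37.0 and 21.4. Per kilobase of exon the 5 genes summed to 161 and 137 CPM with the scramble and 174 and 147 with the knockdown, so the groups overlapped.

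GATOR1, the complex that inactivates RagA when amino acids are short, had 1 gene apart in each direction. Nprl3 stood at 55.7 and 64.9 CPM in the control libraries, and 47.7 and 39.1 in the knockdown libraries, with both miR-99 KD libraries lower. Its log2 difference was -0.48 ± 0.19 (SE, n = 2 in each group), with edgeR p 0.0479 before and 0.318 after adjustment, and the unadjusted p was under 0.05 in 3 of 8 alternative fits. Nprl3 shares 17.7% of its annotated exon bases with Mpg on the opposite strand, and Mpg stood at 16.0 and 15.9 CPM in the Scr libraries and 14.1 and 14.3 CPM in the knockdown libraries. The labels do not say if counting used strand, so it is not known whether reads of the shared stretch were counted or set aside as ambiguous. Ambiguous reads made 1.16% to 1.33% of each library and were left out. The same limit holds for Irs1, Mlst8 and Lamtor1, which share 30.9%, 22.5% and 18.7% of their exon bases with genes on the opposite strand. Those opposite genes had a mean of 0, 0 and 1.71 CPM. Tsc2 and Rps6kb1 share less, 7.2% and 1.79%, but with Pkd1 and Rnft1, at a mean of 43.1 and 71.9 CPM. The introns of Nprl3 also hold the enhancers of the alpha-globin genes. In miR-99 KD, 9 of 12 erythroid markers were above both Scr libraries. The alpha-globin gene among these 12, Hba-a1, overlapped, as did Hbb-bt and Alas2. Hba-a1 had 796 and 240 CPM for Scr, against 877 and 264 for miR-99 KD, a log2 difference of 0.14. Whether the erythroid shift has a part in the value of Nprl3 was not tested. Nprl2, the direct partner of Nprl3, stood at 27.2 and 27.0 CPM with the scramble and 28.0 and 35.7 with the knockdown. Depdc5, the remaining gene of the complex, overlapped at 17.4 and 25.6 CPM in the control libraries, and 15.6 and 22.1 in the knockdown libraries.

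Flcn, which encodes folliculin, the activator of RagC and RagD, had close values in all 4 libraries. It stood at 90.1 and 91.4 CPM in the Scr libraries and 84.0 and 89.2 CPM in the knockdown libraries, with a log2 difference of -0.07 ± 0.13 (SE, n = 2 in each group).

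Per kilobase of exon, the levels of the 33 tested genes spanned from 61.2 CPM for Eif4ebp1 to 0.549 for Rragd in the Scr mean. Eif4ebp1, Lamtor5, Rragc and Lamtor2 were the 4 highest by the mean in both groups. In miR-99 KD the means of Lamtor2 and Rraga were 38.4 and 38.1, and in miR-99 KD 2 Rraga was the higher at 45.1 against 33.4. Rraga and Mapkap1 followed, and their places swapped between the groups, at means of 29.6 and 30.0 in Scr, against 38.1 and 27.7 in miR-99 KD. Pik3cg went from the eighth place to the 13th and Akt2 from the 19th to the 26th. Pik3cb went the other way, from the 27th to the 19th. Insr and Rragd were the lowest of the tested genes in both groups. Such places are not beyond the spread for all neighbours, since Rraga was at 35.8 and 23.5 CPM per kilobase in Scr and Mapkap1 at 28.9 and 31.1.

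**Figure D4:**
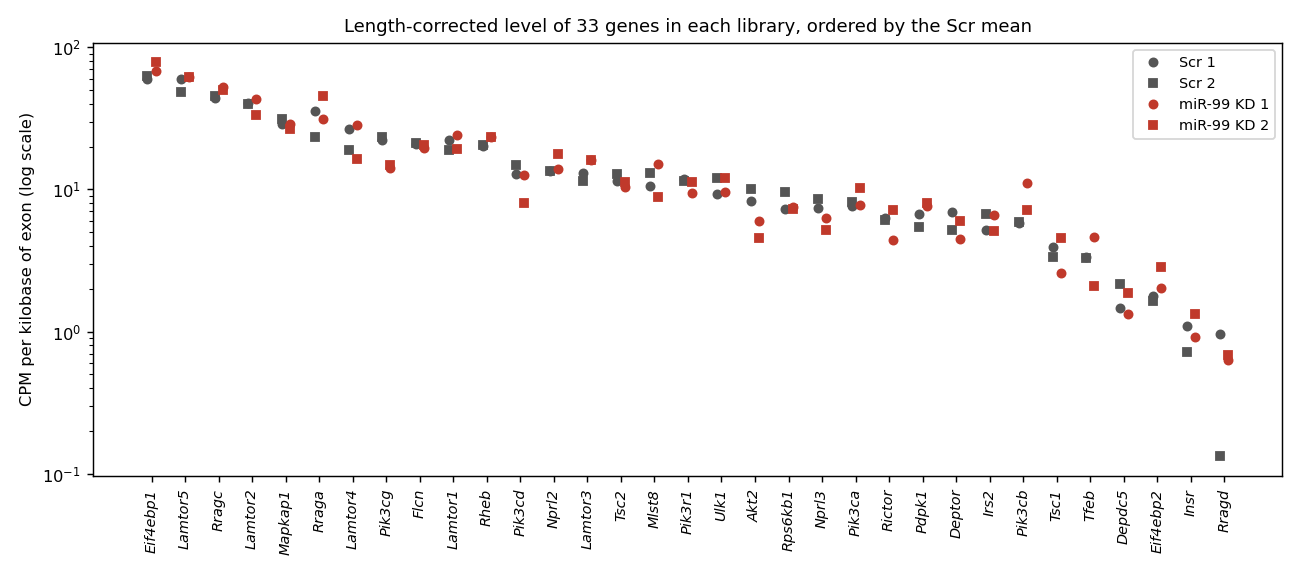
CPM per kilobase of exon (vertical axis, log scale) of the 33 tested genes in each library, ordered by the Scr mean. Levels run from 61.2 for Eif4ebp1 to 0.549 for Rragd, and Pik3cg and Akt2 have both miR-99 KD points below both Scr points.

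Other genes of the pathway, from 6 lists of 100 genes, of which 99 were tested, were read in the same way, and edgeR called 0 of them after adjustment. At an unadjusted edgeR p under 0.05 it counted 6 lower and 5 higher of the 99, and DESeq2 called 2, both lower. Over all genes tested that p counted 9.63% lower and 5.97% higher, and DESeq2 called 5.85%, so these lists did not exceed the shares of all genes. Among 18 PI3-kinase regulators 2 were lower and 1 higher at that threshold, with a median log2 difference of 0.06. Inpp5d encodes SHIP1, the phosphatase of blood cells that converts PIP3 to another lipid, and stood at 238 and 269 CPM with the scramble and 190 and 156 with the knockdown. The fitted log2 difference was -0.55 ± 0.16 (SE, n = 2 in each group), at an edgeR adjusted p of 0.25. Inppl1, for the related SHIP2, stood at 5.74 and 4.6 CPM in the control libraries, and 2.96 and 2.22 in the knockdown libraries. Gab3, an adaptor of receptor signalling, stood at 6.16 and 6.11 CPM in the Scr libraries and 10.7 and 10.6 CPM in the knockdown libraries, with a log2 difference of 0.79 ± 0.25 (SE, n = 2 in each group).

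Of 14 tested mTOR partners and inputs 2 were lower at that threshold and 0 higher, with a median of 0.03, and both were Sestrins, stress-induced proteins that restrain mTORC1. The remaining Sestrin gene, Sesn2, overlapped, with a log2 difference of 0.12. Sesn1 stood at 132 and 169 CPM with the scramble and 102 and 94.5 with the knockdown, a log2 difference of -0.62 ± 0.17 (SE, n = 2 in each group) with an edgeR adjusted p of 0.233 and a DESeq2 adjusted p of 0.0388. Sesn3 stood at 4.48 and 5.08 CPM in the control libraries, and 2.54 and 2.22 in the knockdown libraries. Of 14 genes of GATOR2, KICSTOR and amino acid sensing, 1 was lower and 0 higher, with a median of -0.05. This was Rragb, the close relative of Rraga, at 27.7 and 23.5 CPM in the Scr libraries and 17.4 and 14.3 CPM in the knockdown libraries. Its fitted sign was opposite to that of Rraga, whose groups overlapped, and reads that align to both copies could be lost from either.

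The V-ATPase, the proton pump that acidifies the lysosome and takes part in amino acid sensing there, was mostly higher in miR-99 KD, with no subunit past the adjusted threshold. Of 16 subunit genes 13 had a positive fitted difference, 9 had both miR-99 KD libraries above both Scr libraries and 0 had both below, and 3 were higher at an unadjusted edgeR p under 0.05. Over all genes tested 24.5% lay above both Scr libraries and 5.97% were higher at that p. The median log2 difference was 0.15, beside 0.02 over all genes, and 0.07 with library totals alone, where that of all genes was -0.07. It was 0.10 without miR-99 KD 1, with 12 of 16 fitted higher, and 0.26 without miR-99 KD 2, with 16 of 16. Atp6v0a1 stood at 71.3 and 69.2 CPM with the scramble and 93.9 and 95.6 with the knockdown, Atp6v1e1 at 126 and 99.7 and at 166 and 160, and Atp6v1h at 120 and 128 and at 146 and 177. Their edgeR adjusted p was 0.254, 0.255 and 0.319. In 12 of the 16 genes the highest library was miR-99 KD 1, as it was in 3358 of all 15320 genes tested. All 16 neutrophil markers and 5 of 10 macrophage markers were also highest there, and the part of those cells was not tested.

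The lysosome list of 20 genes had 0 genes at an unadjusted edgeR p under 0.05 and a median log2 difference of 0.01. Its genes summed to 3824 and 3025 CPM in the control libraries, and 3820 and 3143 in the knockdown libraries, so the libraries numbered 1 were the higher in both groups. The median changed sign with the scaling, being -0.08 with library totals alone, and ran from -0.22 without miR-99 KD 1 to 0.18 without Scr 1. Of 17 autophagy genes 1 was lower and 1 higher, with a median of -0.08. Gabarapl1, an autophagosome protein of the Atg8 family, stood at 105 and 108 CPM in the Scr libraries and 71.9 and 59.6 CPM in the knockdown libraries. The fitted log2 difference was -0.70 ± 0.15 (SE, n = 2 in each group), at an edgeR adjusted p of 0.220 and a DESeq2 adjusted p of 0.0095. Atg5, which helps attach Atg8 proteins to membranes, stood at 81.0 and 64.4 CPM with the scramble and 100.3 and 127 with the knockdown, with an edgeR adjusted p of 0.253.

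**Figure D5:**
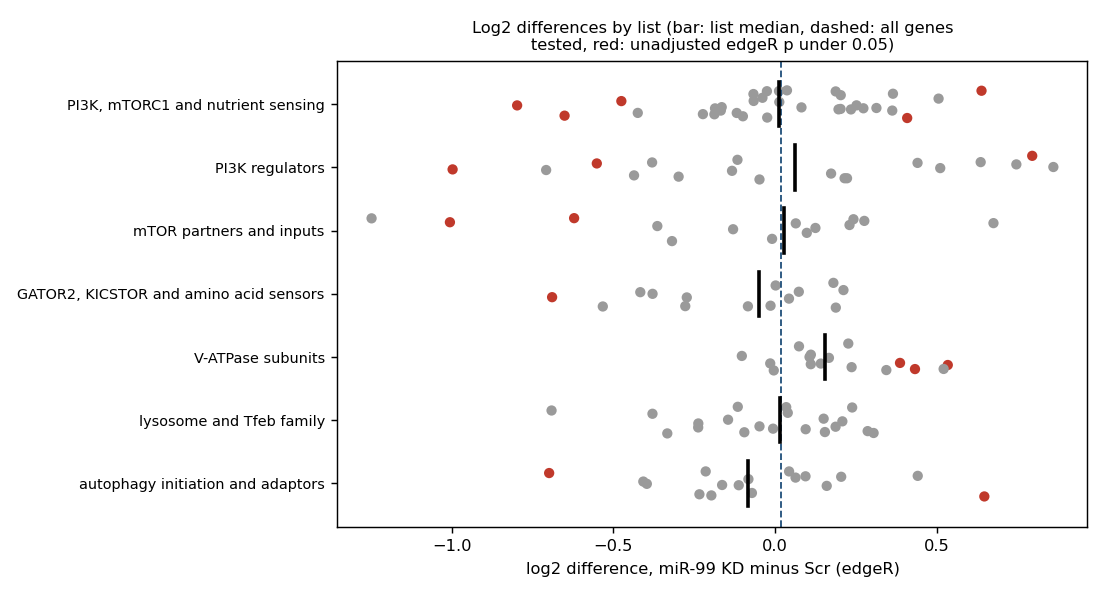
Log2 difference (miR-99 KD minus Scr, horizontal axis) of each tested gene of the 34-gene list and of 6 further lists of the pathway, with a bar at each list's median and a dashed line at the median of all genes tested, 0.02. The V-ATPase subunits lie mostly to the right, with a median of 0.15, and the other lists are centred near 0 with single genes on both sides.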

How the data were processed

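The deposited values are raw counts of reads for each Ensembl gene, in a separate file for each library. Cell lysis in Trizol LS and SMARTer library amplification are given per the labels. The submitters' processing notes name STAR, Picard, HTSeq, DESeq2 and the build mm9, without versions, and the setting for strand is not known here. Symbols, exon lengths and 3′ untranslated regions came from GENCODE M21, a later build, and 44585 of 45232 gene rows matched. Rows that name no gene took 36.9% to 42.5% of reads and were left out. Without molecular identifiers, PCR copies are counted too.

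Genes passing filterByExpr were tested by quasi-likelihood in edgeR 4.0.16 (R 4.3.3), after TMM scaling, without a replicate block and with Benjamini-Hochberg adjustment over all genes at 0.05. DESeq2 1.42.0, other scalings, no filter, a replicate block and leaving out each library were alternatives. DESeq2 left 2674 adjusted p-values without a value. The fits were tested on simulated data. The genes and lists were chosen with earlier results of these data known. All listed genes are described, the 10 with the smallest p in full, with up to 4 genes of each further list by p, taken from those with an unadjusted p under 0.05. Matches and shares formed after the values were seen are descriptions.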

Additional observations from a re-analysis of the deposited data

How the results depend on the processing

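The count of genes called, 0 in edgeR over all 4 libraries, was 896 with DESeq2, 1064 without a filter and 0 to 1013 in edgeR with each library left out, namely 1013 leaving out miR-99 KD 1 and 437 leaving out miR-99 KD 2. For the 33 tested genes the count, 0 in edgeR, was 2 with DESeq2, beside 5.85% of all genes, and 2 without a filter (Pik3cg and Akt2 in each). The fit without a filter took in every row with at least 1 read, more than the 15320, so its 1064 genes are not a share of those. Where a group is down to 1 library, the fit takes its spread from the other group. The count at an unadjusted p under 0.05, 5 genes, was 3 with library totals alone and 1 to 7 without each library, the 1 without Scr 2 and 3 without Scr 1. The median log2 difference, 0.01, was -0.0773 with library totals alone, where that of all genes was -0.07, and -0.00604 to 0.05 without each library. Chosen after seeing the data, DESeq2 without each library called 27 to 1547 genes in all (129 without Scr 1, 840 without miR-99 KD 2) and 0 to 3 of the 33, and counted 1 to 5 at an unadjusted p under 0.05.

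Deviations from the group means correlated at 0.0561 between libraries of the same number. The 2 such pairs give the same value by construction, since the deviations within a group are equal and opposite. This value cannot show whether mice were paired, and the main fit assumed no pairing. With the replicate block edgeR called 0 genes, and 3 of the 33 had an unadjusted p under 0.05 with a median of -0.0392. DESeq2 with the replicate block called 391 genes and 0 of the 33, with 3 at an unadjusted p under 0.05 and a median of -0.0399. The cause of these changes was not tested. With 2 libraries per group, small differences such as those of Rheb or Rragc did not pass the test, although their libraries were close within each group.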

Other observations

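Several genes of the list differed more within miR-99 KD than between the groups. The median absolute log2 gap between libraries over the 34 genes was 0.22 in Scr and 0.34 in miR-99 KD, beside 0.23 and 0.33 over all genes tested. In miR-99 KD the gap was 1.13 for Tfeb, 0.83 for Tsc1, 0.79 for Lamtor4, 0.78 for Mlst8 and 0.69 for Rictor, and the Scr gaps of Tfeb and Rictor were 0.0053 and 0.048. Tfeb, Lamtor4 and Mlst8 were higher in miR-99 KD 1, and Tsc1 and Rictor in miR-99 KD 2. Across the 33 tested genes the log2 ratio of miR-99 KD 1 to miR-99 KD 2 had a Spearman correlation of -0.444 with log2 exon length, and -0.0479 across 15257 genes. For Scr 1 over Scr 2 it was -0.162 and -0.152, and for the fitted difference between the groups -0.296 and -0.134. These genes share the same pair of libraries and are not independent replicates, so the values are a description.

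A total of 29793890 reads, pasted under the gene rows of the miR-99 KD 2 counts with the name Scr-1, equals the gene total of none of the 4 libraries. The total pasted there under miR-99 KD 1 with the name Scr-2 equals that of the library labelled Scr 1. The replicate numbers in the labels and in these pasted names therefore differ, and the labels were used.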
